A study of Mus musculus with 24 samples.

Results

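Transcripts of 10 genes of mature skeletal muscle were followed tumor by tumor in 18 mouse mammary tumors, with 6 libraries of the same cell lines in culture as the blank. The genes, Acta1, Atp2a1, Ckm, Myh4, Myh1, Mylpf, Tnnt3, Tnni2, Actn3 and Ryr1, were taken by symbol from the deposited tables and are 10 of 54532 genes in the tumor table and 10 of 35275 in the table of cultured cells. They were taken as genes of muscle fibers, with no threshold on their values, and all 10 were found in both tables.

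The study compared tumors of D2.1 cells, which lie dormant in a metastatic setting, with those of D2A1 cells, which proliferate there. Both are mammary lines of BALB/c origin, derived from hyperplastic alveolar nodules named D2, and were implanted at 1000000 cells per mouse into the mammary fat pad of female hosts. Hosts were immunocompetent BALB/c mice (BALB/cAnNTac) or SCID-beige mice, which carry the Prkdc scid and Lyst bg alleles, lack T and B cells, have defective NK cells and keep their myeloid cells. Each library came from the RNA of 1 whole snap-frozen tumor, collected at a size of about 500 cubic mm, or from cultured cells. Each line gave 4 tumors in BALB/c hosts, 5 in SCID-beige hosts and 3 cultures. Tumors are numbered here as in the sample labels. Nothing in the labels says that the cultures were grown separately, so that the spread between them may be technical.

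Reads counted on genes numbered 13566949 to 18355153 per tumor and 16837260 to 24818234 per cultured library. At these depths a floor of 3 counts corresponds to 0.163 to 0.221 counts per 1000000 (CPM) in tumors and 0.121 to 0.178 CPM in cultured cells, which covers counting error only. The tumors carried the host and line their labels give by other genes. Cd3e, a subunit of the T cell receptor complex, was at 0.743 CPM or more in every tumor from BALB/c mice and at 0.41 CPM or less in every tumor from SCID-beige mice, and Sox9 was at 106 CPM or more in D2.1 tumors and at 49.2 CPM or less in D2A1 tumors.

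Skeletal muscle fibers contract by sliding thick filaments of myosin along thin filaments of actin. Calcium released from the sarcoplasmic reticulum binds the troponin complex on the thin filament, which lets myosin bind, and creatine kinase restores the ATP that is spent. Adult fast fibers are typed by their myosin heavy chain, with Myh4 in type IIB, Myh1 in type IIX and Myh2 in type IIA fibers, while Myh7 marks slow fibers. Mammary fat pads of the mouse lie under the skin next to the muscle of the trunk and limbs.

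The promoters of these genes are known for binding by muscle regulators at short motifs, and those of the 4 genes on which most of the values turn are shown for that reason. RefSeq promoter sequence of GRCm38.p6 was at hand for 7 of the 10 genes, and Tnnt3, Tnni2 and Actn3 are named only. The 250 bases before the RefSeq start are given from 5′ to 3′ on the strand of the gene, at chr8:123894776-123895025 on the minus strand for Acta1 and, on the plus strand, at chr11:67237562-67237811 for Myh4, chr11:67199852-67200101 for Myh1 and chr7:19410844-19411093 for Ckm. Capitals mark CANNTG (the E box bound by myogenic bHLH factors), TATAAA, the MEF2 site and the CArG box, each searched on both strands.
Acta1: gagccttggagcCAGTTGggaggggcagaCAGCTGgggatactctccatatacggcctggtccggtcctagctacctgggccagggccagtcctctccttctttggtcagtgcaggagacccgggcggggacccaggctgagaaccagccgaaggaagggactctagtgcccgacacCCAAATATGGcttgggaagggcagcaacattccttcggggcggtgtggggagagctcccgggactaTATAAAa
Myh4: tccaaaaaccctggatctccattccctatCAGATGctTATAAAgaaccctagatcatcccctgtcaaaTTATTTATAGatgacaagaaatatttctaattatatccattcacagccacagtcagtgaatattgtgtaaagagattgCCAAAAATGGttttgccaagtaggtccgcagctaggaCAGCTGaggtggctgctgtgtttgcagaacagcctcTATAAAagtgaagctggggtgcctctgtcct
Myh1: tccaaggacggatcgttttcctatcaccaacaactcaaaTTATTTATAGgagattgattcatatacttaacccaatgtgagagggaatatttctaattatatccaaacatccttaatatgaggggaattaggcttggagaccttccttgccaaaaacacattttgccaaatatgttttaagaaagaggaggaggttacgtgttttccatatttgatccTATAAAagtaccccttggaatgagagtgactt
Ckm: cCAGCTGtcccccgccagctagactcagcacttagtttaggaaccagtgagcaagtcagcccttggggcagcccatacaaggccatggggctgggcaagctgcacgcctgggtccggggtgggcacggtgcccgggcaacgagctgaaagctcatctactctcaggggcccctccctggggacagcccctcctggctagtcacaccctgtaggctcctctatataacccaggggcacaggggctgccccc
Acta1 held 2 matches to CANNTG, 1 CArG box and 1 TATAAA. Myh4 held 2, 1 and 3 of these and 1 MEF2 site, while Myh1 held 1 MEF2 site and 2 matches to TATAAA and none to CANNTG or the CArG box. In Myh4 and in Myh1 alike, 1 of the TATAAA matches lies inside the MEF2 match on the other strand. Ckm held 1 CANNTG match in this window. Among all 32851 promoter windows of this length, 66.2% held at least 1 CANNTG, 12.4% at least 1 TATAAA, 1.69% a MEF2 site and 1.47% a CArG box. Each match is a match of letters and was not tested for binding.

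The 10 transcripts together ranged over 72.2-fold among tumors. Levels are CPM scaled by the trimmed mean of M values (TMM), in which tumors and cultured cells were normalized separately. Summed over the 10 genes, D2.1 tumors 1 to 4 from BALB/c mice were at 461, 63.7, 157 and 95.9 CPM, and D2.1 tumors 1 to 5 from SCID-beige mice at 6.38, 29.3, 13.8, 365 and 295 CPM. D2A1 tumors 1 to 4 from BALB/c mice were at 97.7, 17.2, 28.6 and 21.5 CPM, and D2A1 tumors 1 to 5 from SCID-beige mice at 21.2, 30.6, 12.9, 15.6 and 10.6 CPM. Of the D2.1 tumors, BALB/c tumor 1 and SCID-beige tumors 4 and 5, together held 64.3% of the total over all 18 tumors, and SCID-beige tumor 1 was the lowest of all tumors. Cultured D2.1 cells were at 10.0 to 14.2 CPM and cultured D2A1 cells at 4.31 to 9.11 CPM. D2.1 tumors 1 and 3 from SCID-beige mice therefore stood below or within the range of cultured D2.1 cells, whereas every D2A1 tumor stood above all cultured D2A1 cells. These sums were of unlike make-up. In D2A1 BALB/c tumors 2 to 4, with 0 counts of Ckm, Myh4 and Myh1, Tnni2 made up 31.7% to 50.5% of the summed counts. In D2.1 SCID-beige tumor 1, Ryr1 made up 51.9%. Both genes were also counted in cultured cells. The group means were 194 ± 182 CPM (SD, n = 4) for D2.1 in BALB/c, 142 ± 174 CPM (SD, n = 5) for D2.1 in SCID-beige, 41.3 ± 37.9 CPM (SD, n = 4) for D2A1 in BALB/c and 18.2 ± 8.0 CPM (SD, n = 5) for D2A1 in SCID-beige mice, so that the spread within a D2.1 group was about as large as its mean.

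**Figure D1:**
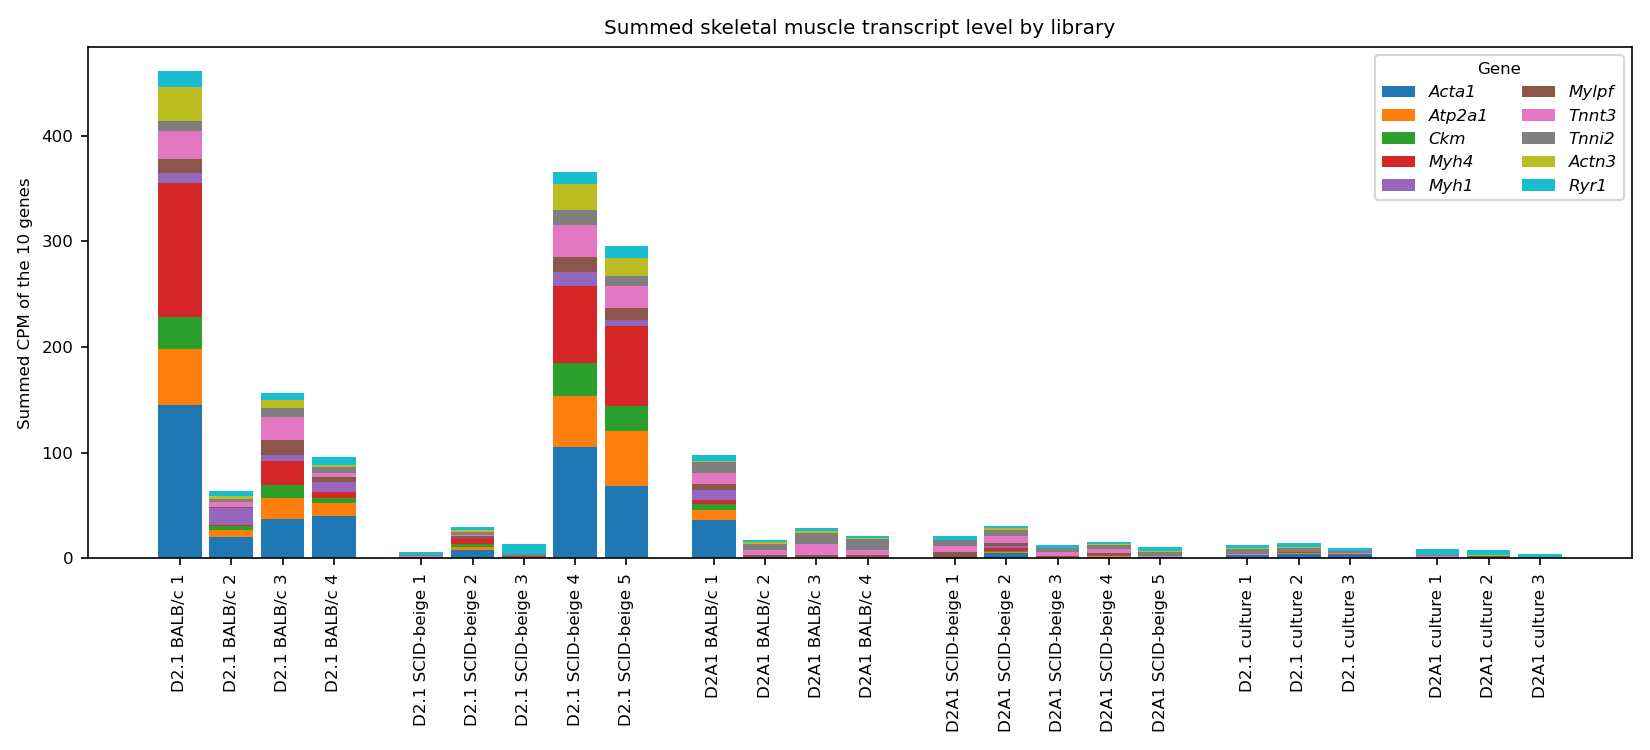
Summed level of the 10 transcripts (CPM, linear axis from 0) in each of the 24 libraries, with the part of each gene stacked in color. D2.1 BALB/c tumor 1 (461 CPM) and D2.1 SCID-beige tumors 4 and 5 (365 and 295 CPM) stand above all others, and the cultured libraries lie between 4.31 and 14.2 CPM.

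Ckm, Myh4 and Myh1 were at 0 counts in all 6 cultured libraries, which allows at most 3 counts in each. Acta1, Mylpf, Tnnt3, Tnni2, Actn3, Ryr1 and Atp2a1 were counted in every cultured library. The blank therefore differed by gene, and each tumor was set against the highest cultured library of its own line, with more than 3 counts required where that library was at 0. All 10 transcripts were above it in D2.1 BALB/c tumors 1, 3 and 4 and in D2.1 SCID-beige tumors 4 and 5. In D2.1 BALB/c tumor 2, 9 were above it, and in D2.1 SCID-beige tumors 1, 2 and 3 it was 1, 8 and 3. Among D2A1 tumors, 9, 6, 6 and 5 transcripts were above the blank in BALB/c tumors 1 to 4, and 5, 9, 4, 5 and 4 in SCID-beige tumors 1 to 5. Where the blank was not at 0, any excess in CPM was taken as above it, with no margin for counting error. Acta1 in D2A1 BALB/c tumor 3, for example, was above it at 0.422 against 0.403 CPM.

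**Figure D2:**
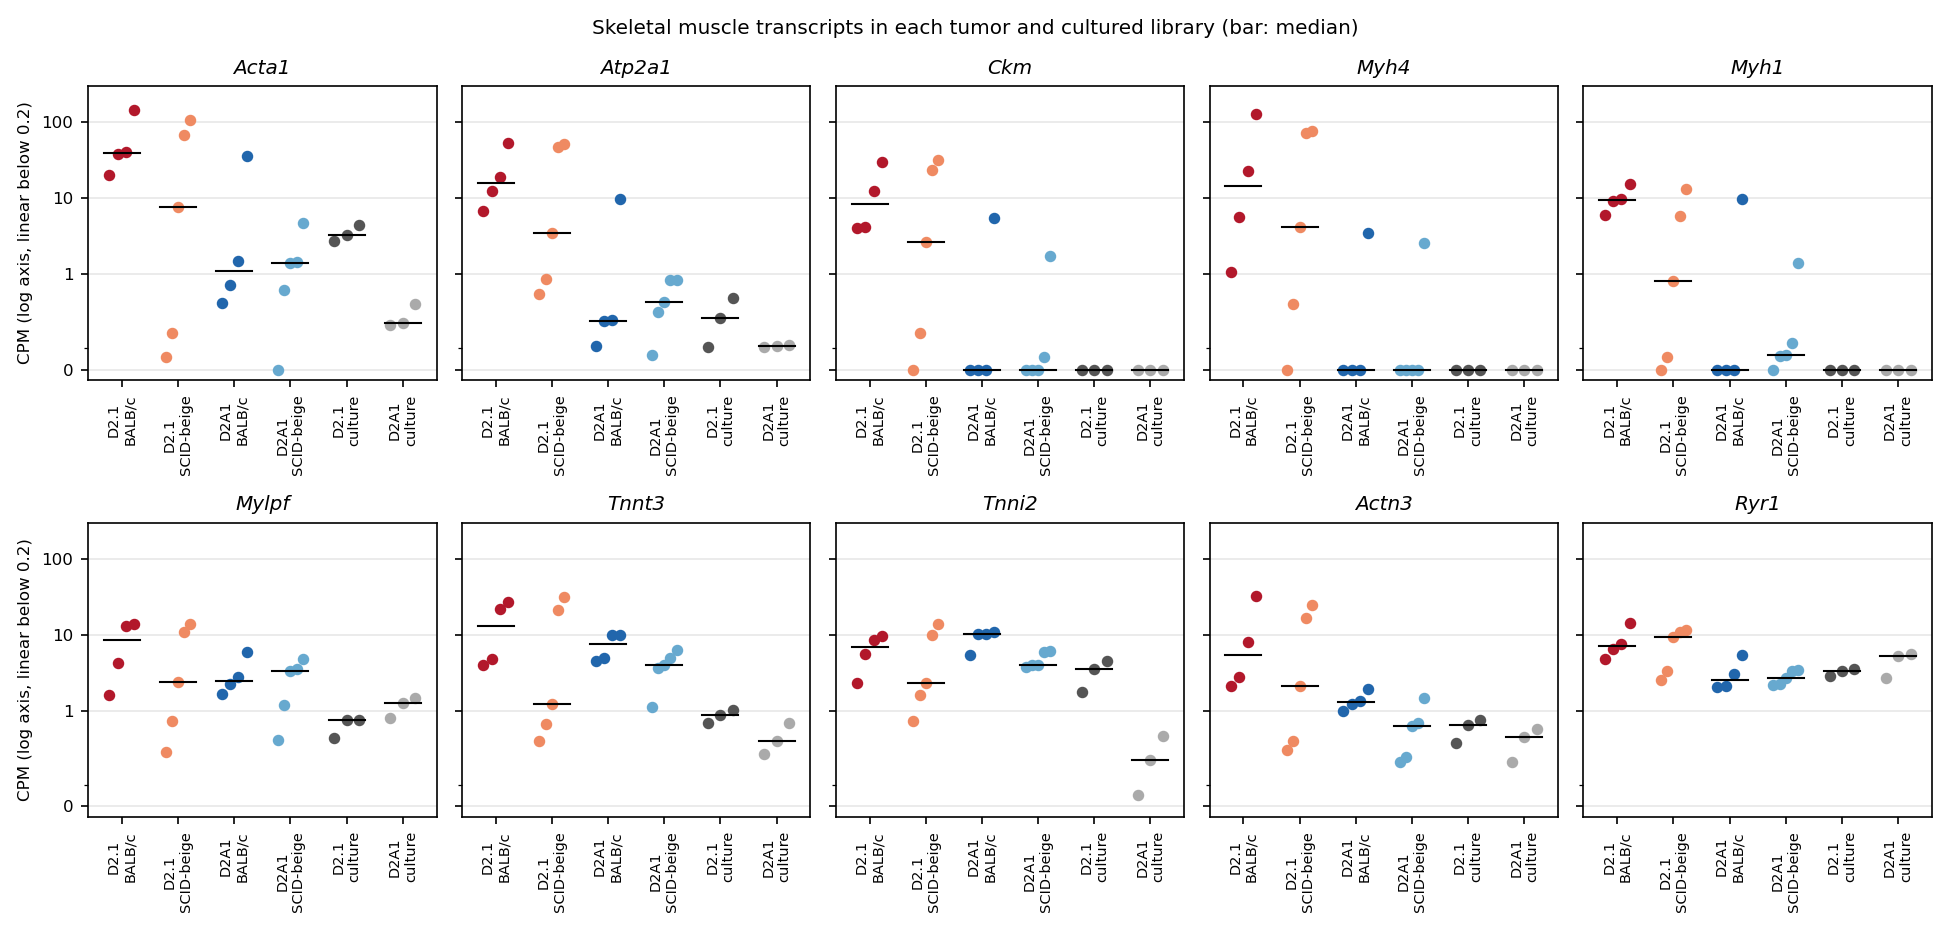
Level of each transcript (CPM, on an axis that is linear below 0.2 and logarithmic above) in the 4 groups of tumors and 2 groups of cultures; each point is 1 library and each bar a group median. Ckm, Myh4 and Myh1 are at 0 in all cultures and at or near 0 in most D2A1 tumors, whereas Tnnt3 and Tnni2 are above the D2A1 cultures in all 9 D2A1 tumors.

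Acta1 (ENSMUSG00000031972, GRCm38 chromosome 8, 123891769 to 123894751, minus strand) encodes skeletal alpha-actin, the actin of the muscle thin filament. It had 2707, 331, 650 and 627 counts in D2.1 tumors 1 to 4 from BALB/c mice and 1, 130, 3, 1774 and 1083 counts in D2.1 tumors 1 to 5 from SCID-beige mice. In D2A1 tumors it had 627, 24, 7 and 13 counts in the BALB/c group and 21, 69, 9, 23 and 0 in the SCID-beige group. Cultured D2.1 cells had 51, 99 and 62 counts and cultured D2A1 cells 7, 4 and 4. D2.1 tumors 1 and 3 of SCID-beige mice thus carried fewer Acta1 reads than the cells they were grown from had in culture, while D2A1 BALB/c tumor 1 reached the level of D2.1 tumors.

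Tnnt3 (ENSMUSG00000061723, chromosome 7, 142498836 to 142516009, plus strand) and Tnni2 (ENSMUSG00000031097, chromosome 7, 142441808 to 142444410, plus strand) encode the fast skeletal troponin T, which anchors troponin to tropomyosin, and the fast troponin I, which holds myosin off the thin filament at rest. Tnnt3 had 507, 80, 373 and 62 counts in D2.1 BALB/c tumors, 11, 21, 7, 521 and 332 in D2.1 SCID-beige tumors, 172, 80, 166 and 81 in D2A1 BALB/c tumors and 71, 91, 58, 59 and 18 in D2A1 SCID-beige tumors. Tnni2 had 179, 39, 146 and 86 counts in D2.1 BALB/c tumors, 12, 39, 28, 231 and 160 in D2.1 SCID-beige tumors, 177, 88, 169 and 196 in D2A1 BALB/c tumors and 86, 87, 58, 64 and 60 in D2A1 SCID-beige tumors. In both genes the D2.1 and D2A1 groups overlapped. Cultured D2.1 cells had 19, 20 and 13 counts of Tnnt3 and 82, 81 and 33 of Tnni2, and cultured D2A1 cells had 12, 7 and 5 and 8, 4 and 1. In D2A1 BALB/c tumors 2, 3 and 4, which had 0 counts of Ckm, Myh4 and Myh1, both troponins stood above every D2A1 culture.

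Actn3 (ENSMUSG00000006457, chromosome 19, 4861216 to 4877909, minus strand) encodes the alpha-actinin of fast fibers, which ties thin filaments to the Z-disc. Its counts were 599, 46, 138 and 33 in D2.1 BALB/c tumors, 5, 36, 7, 410 and 265 in D2.1 SCID-beige tumors, 21, 22, 32 and 18 in D2A1 BALB/c tumors and 10, 21, 3, 4 and 10 in D2A1 SCID-beige tumors. Cultured cells had 12, 17 and 7 counts in D2.1 and 10, 8 and 4 in D2A1. In BALB/c mice every D2.1 tumor was above every D2A1 tumor on this gene, with the nearest at 33 and 32 counts.

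The thick filament was represented by Myh4 (ENSMUSG00000057003, chromosome 11, 67238029 to 67260446, plus strand), Myh1 (ENSMUSG00000056328, chromosome 11, 67200052 to 67224575, plus strand) and Mylpf (ENSMUSG00000030672, chromosome 7, 127208890 to 127214298, plus strand), the last of which encodes the regulatory light chain of fast myosin. Myh4 had 2381, 18, 398 and 89 counts in D2.1 BALB/c tumors and 0, 72, 7, 1223 and 1208 in D2.1 SCID-beige tumors. It was counted in D2A1 BALB/c tumor 1, with 61 counts, and in D2A1 SCID-beige tumor 2, with 37, and was at 0 in the other 7 D2A1 tumors. Myh1 had 174, 254, 104 and 154 counts in D2.1 BALB/c tumors, 0, 14, 1, 224 and 94 in D2.1 SCID-beige tumors, 170, 0, 0 and 0 in D2A1 BALB/c tumors and 1, 20, 0, 2 and 1 in D2A1 SCID-beige tumors. The 2 heavy chains thus did not share their order, since D2.1 BALB/c tumor 2 was the highest of all tumors in Myh1 and the lowest of its group in Myh4. Mylpf had 240, 27, 237 and 67 counts in D2.1 BALB/c tumors, 12, 41, 5, 229 and 173 in D2.1 SCID-beige tumors, 101, 27, 46 and 40 in D2A1 BALB/c tumors and 70, 48, 6, 57 and 19 in D2A1 SCID-beige tumors, against 8, 17 and 14 in cultured D2.1 and 22, 26 and 15 in cultured D2A1 cells. Unlike the heavy chains, Mylpf was counted in every library.

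Calcium handling was represented by Atp2a1 (ENSMUSG00000030730, chromosome 7, 126445858 to 126463108, minus strand), the calcium pump of the sarcoplasmic reticulum in fast fibers, and by Ryr1 (ENSMUSG00000030592, chromosome 7, 29003344 to 29125179, minus strand), the calcium release channel. Atp2a1 had 999, 113, 329 and 193 counts in D2.1 BALB/c tumors, 9, 59, 15, 795 and 831 in D2.1 SCID-beige tumors, 167, 4, 4 and 2 in D2A1 BALB/c tumors and 1, 12, 12, 7 and 5 in D2A1 SCID-beige tumors. Cultured cells had 2, 11 and 5 counts in D2.1 and 2 in each D2A1 library. Ryr1 had the narrowest range over the tumors, with 270, 79, 113 and 119 counts in D2.1 BALB/c tumors, 54, 43, 164, 192 and 174 in D2.1 SCID-beige tumors, 94, 33, 50 and 38 in D2A1 BALB/c tumors and 49, 31, 39, 36 and 55 in D2A1 SCID-beige tumors. With 65, 75 and 53 counts in cultured D2.1 and 97, 94 and 50 in cultured D2A1 cells, it was the 1 gene of the 10 that no D2A1 tumor carried above the highest D2A1 culture in CPM. D2.1 SCID-beige tumor 3 had 164 counts of Ryr1 beside 7 of Myh4 and 3 of Ckm.

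Ckm (ENSMUSG00000030399, chromosome 7, 19404776 to 19422841, plus strand) encodes muscle creatine kinase. It was at 29.6, 4.22, 12.4 and 4.11 CPM in D2.1 BALB/c tumors and at 0, 2.64, 0.173, 31.5 and 23.3 CPM in D2.1 SCID-beige tumors. In D2A1 tumors it was at 5.56, 0, 0 and 0 CPM in the BALB/c group and at 0, 1.74, 0, 0.0618 (1 count) and 0 CPM in the SCID-beige group. The tumors with the most Ckm were those with the most Acta1, Atp2a1, Actn3 and Myh4, namely D2.1 BALB/c tumor 1 and D2.1 SCID-beige tumors 4 and 5. Among D2A1 tumors, BALB/c tumor 1 and SCID-beige tumor 2 were the highest in Ckm, Myh4 and Myh1 alike.

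Per length, in the deposited FPKM values, the levels of the 10 genes in D2.1 tumors from BALB/c mice were led by Acta1 at 58.9 ± 56.7 FPKM (SD, n = 4). Mylpf followed at 18.7 ± 14.2, Tnnt3 at 17.0 ± 14.1, Atp2a1 at 11.1 ± 10.4, Tnni2 at 9.87 ± 5.12, Ckm at 8.16 ± 7.94, Myh4 at 6.67 ± 10.2, Actn3 at 5.87 ± 7.48, Myh1 at 2.14 ± 0.797 and Ryr1 at 1.19 ± 0.635 FPKM, and the ranges of 1 SD of neighbors in this order overlapped. In D2A1 tumors from BALB/c mice the order was headed by Tnni2 at 14.6 ± 4.13 FPKM (SD, n = 4), with Acta1 at 10.2 ± 18.6, Tnnt3 at 8.96 ± 3.74 and Mylpf at 7.55 ± 4.79, while Ckm was at 0.969 ± 1.94 and Myh4 at 0.16 ± 0.32 FPKM. The lengths behind these FPKM values were shorter than the exon lengths of GENCODE M21 for all 10 genes, at 6958 against 21838 bases for Ryr1 and 5964 against 6016 for Myh4, which raises the FPKM of Ryr1 relative to Myh4.

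The mix of adult fast myosin heavy chains differed from tumor to tumor. In the 9 tumors with at least 50 counts over Myh4, Myh1 and Myh2, the share of Myh4 ran from 4.8% to 92.7%. In D2.1 BALB/c tumor 1, Myh4 made up 92.7% of 2569 counts (exact 95% binomial interval 91.6% to 93.7%), whereas in D2.1 BALB/c tumor 2 it made up 4.8% of 375 counts (2.87% to 7.48%), with Myh1 at 67.7% (62.7% to 72.4%) and Myh2 at 27.5% (23.0% to 32.3%). D2.1 BALB/c tumor 3 had 77.7% Myh4 (73.9% to 81.3%) and tumor 4 had 34.4% (28.6% to 40.5%). D2.1 SCID-beige tumors 2, 4 and 5 were alike in having mostly Myh4, at 81.8% (72.2% to 89.2%), 79.4% (77.3% to 81.4%) and 87.6% (85.7% to 89.3%). D2A1 BALB/c tumor 1 had 22.7% Myh4 (17.8% to 28.2%) with 63.2% Myh1, and D2A1 SCID-beige tumor 2 had 53.6% (41.2% to 65.7%) of only 69 counts. The intervals cover counting error only, and those of D2.1 BALB/c tumors 1 to 4 did not overlap. Of all 100-base windows of their transcripts, Myh4 shares 2.25% with Myh1 and Myh1 shares 7.21% with Myh2, so that a small part of the reads could not be placed on 1 gene by sequence alone.

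**Figure D3:**
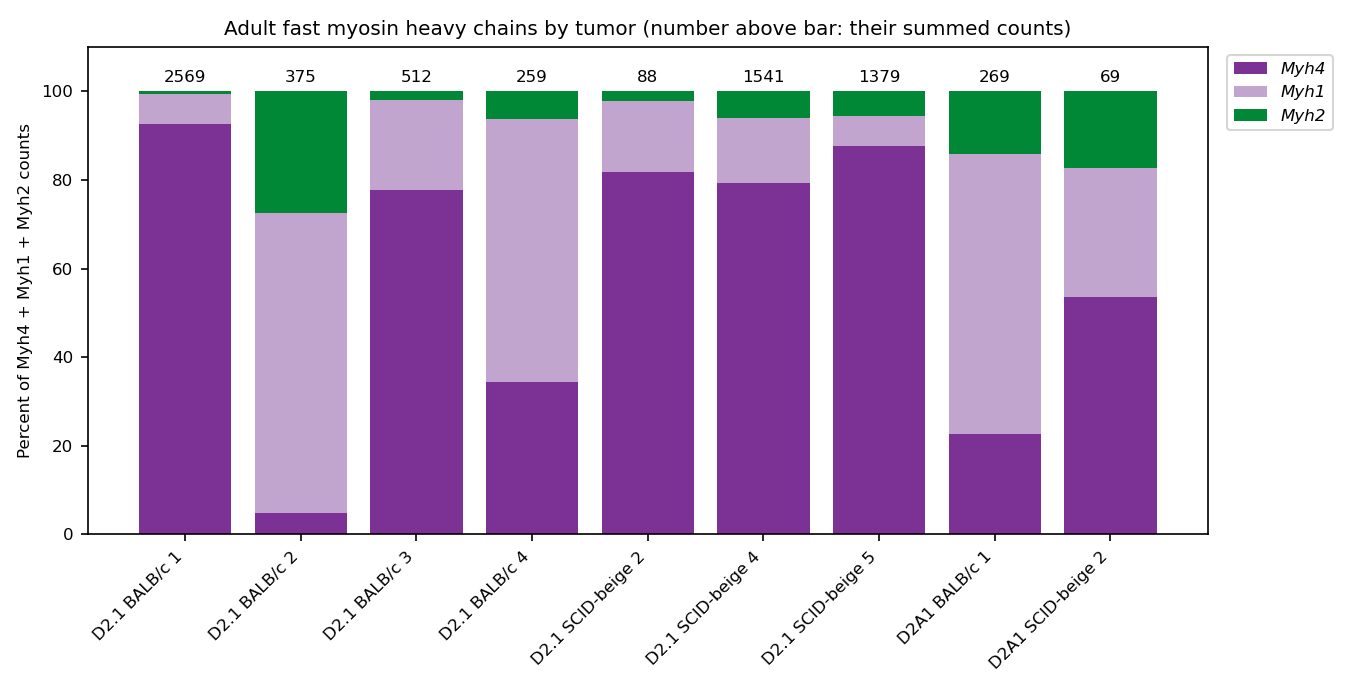
Share of Myh4, Myh1 and Myh2 in their summed counts (percent, stacked bars from 0 to 100) in the 9 tumors with at least 50 such counts, with the summed counts printed above each bar. Myh4 runs from 4.8% in D2.1 BALB/c tumor 2 to 92.7% in D2.1 BALB/c tumor 1.

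Relative to Ckm, the other transcripts kept unequal proportions. In the 9 tumors with at least 20 Ckm counts, Acta1 had 2.76 to 9.80 counts per Ckm count (median 3.36), a 3.55-fold range, which was the smallest of the 9 genes. Actn3 ranged over 4.95-fold, Mylpf over 4.98-fold and Ryr1 over 5.11-fold. The widest ranges were those of Myh4, from 0.257 to 4.31 counts per Ckm count (16.7-fold), and Myh1, from 0.254 to 3.63 (14.3-fold). Across the 18 tumors, the ranks of Ckm and Myh4 were the closest of the 45 pairs of members (Spearman's rho 0.95), while Tnni2 was the farthest from the rest, with a median rho of 0.36 to the other 9 against 0.81 for Acta1. These tumors share lines and hosts, and the correlations are a description.

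Lines were compared in each host, D2.1 over D2A1, by the quasi-likelihood test of edgeR with p-values adjusted by Benjamini-Hochberg over all genes tested. In BALB/c mice, 3 of the 10 transcripts passed an adjusted p of 0.05, all higher in D2.1 tumors, where 32.6% of all 14953 genes tested passed in either direction and 16.8% as higher. In this fit, the share of members that passed in either direction was near that of all genes. Actn3 was higher by 3.04 on the log2 scale (SE 0.81, adjusted p = 0.0156 by edgeR), Myh4 by 5.46 (SE 1.65, adjusted p = 0.0276) and Ryr1 by 1.41 (SE 0.44, adjusted p = 0.0319). Acta1 (log2 fold change 2.64), Atp2a1 (3.16), Ckm (3.17), Myh1 (2.03), Mylpf (1.38), Tnnt3 (0.98) and Tnni2 (-0.50) did not pass. The median over the 10 was 2.34, against -0.02 over all genes tested. Ckm, Myh4 and Myh1, with 0 counts in D2A1 BALB/c tumors 2 to 4, passed the filter on low counts only because D2.1 tumors were high. Atp2a1, with at most 4 counts in those tumors, did so too. The medians are therefore not over like sets, and Myh4 among the calls has the same limit. Fewer muscle cells and less RNA per muscle cell cannot be told apart in such whole-tumor RNA. For the transcripts also counted in cultured cells, Actn3 and Ryr1 among them, RNA of the tumor cells themselves cannot be told apart from these either.

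With the replicate number as a block, 7 members passed in edgeR, namely Acta1, Atp2a1, Ckm, Myh4, Mylpf, Actn3 and Ryr1, where 45.2% of 16377 genes passed in either direction. No source says that this number marks a pair of tumors. The same number of members passed, unblocked, without D2A1 BALB/c tumor 1, with Myh1 in place of Mylpf, where 4082 of 15357 genes passed. Without D2.1 BALB/c tumor 1, or without D2A1 BALB/c tumor 2, 3 or 4, only Actn3 passed. In those fits 4128 to 4313 genes passed of 15256 to 15443 tested. Without D2.1 BALB/c tumor 2, 5 members passed, where 5046 of 15397 genes did. Myh4 did not pass in DESeq2 or under looser filters on low counts, and its log2 fold change ran from 3.48 to 12.39 as single tumors were left out. The adjusted p of Actn3 stayed at or under 0.0486 with any 1 tumor left out, and that of Ryr1 reached 0.101. In an exact 2-sided permutation test of log2 CPM, in which 0.0286 is the smallest p that 4 against 4 tumors allow, Actn3 had p = 0.0286, and Myh4 and Ryr1 had p = 0.0571.

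In SCID-beige mice, Ckm, Myh4 and Myh1 did not pass edgeR's filter on low counts, and 4 of the 7 members tested passed the threshold, all higher in D2.1 tumors, where 32.1% of 14355 genes passed and 17.2% as higher. Atp2a1 was higher by 5.40 on the log2 scale (SE 1.22, adjusted p = 0.00404 by edgeR), Acta1 by 4.47 (SE 1.46, adjusted p = 0.0328), Actn3 by 3.77 (SE 1.08, adjusted p = 0.0163) and Ryr1 by 1.44 (SE 0.43, adjusted p = 0.0197). Tnnt3 (1.45), Mylpf (1.07) and Tnni2 (0.27) did not pass. A gene low in D2A1 tumors enters this count only where enough D2.1 tumors were high. Atp2a1 had at most 12 counts in these D2A1 tumors and Actn3 had 3 to 21, whereas Tnnt3, Tnni2 and Ryr1 had at least 18 in each. Leaving out D2.1 tumor 4 or tumor 5 left 2 calls, Atp2a1 and Actn3, and leaving out D2.1 tumor 1 or tumor 3, with Ckm, Myh4 and Myh1 then past the filter, gave 7. In these fits 3969 to 4916 genes passed of 14575 to 14638 tested. Without any filter on low counts 2 of 10 passed, Atp2a1 and Ryr1, where 4600 of 26936 genes did. With at least 10 counts Acta1 did not pass. By the exact permutation test, Atp2a1 had p = 0.0317, Ryr1 0.0714, Actn3 0.167 and Acta1 0.31, where 0.00794 is the smallest p that 5 against 5 tumors allow.

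Hosts were compared for each line, with BALB/c over SCID-beige. These comparisons use the same tumors as those of the lines and are not independent of them. In D2.1 tumors, 0 of the 10 transcripts passed in edgeR, where 0.891% of 14929 genes did, and 0 had an unadjusted p under 0.05 or passed in DESeq2. The log2 fold changes lay between 0.16 for Ckm (SE 1.19) and 1.34 for Myh1 (SE 1.06), so that differences of several-fold in either direction were not detectable with this spread. All 10 were positive, but without D2.1 BALB/c tumor 1 only 2 were, and without SCID-beige tumor 1, 2 or 3 it was 6 or 7. In D2A1 tumors, 6 members passed the filter and 0 of them the threshold, where 1.17% of 14572 genes passed it. The 6 log2 fold changes were positive, but without D2A1 BALB/c tumor 1 only 3 of them were, and without D2A1 SCID-beige tumor 3 it was 5. Tnni2 was the 1 member with an unadjusted p under 0.05, with a log2 fold change of 0.96 (SE 0.27, adjusted p = 0.131 by edgeR). It passed in DESeq2 (adjusted p = 0.0445), and the exact permutation test gave p = 0.0317. In data simulated for this comparison, 20.1% of the calls of DESeq2 were false. For the interaction of line and host, 0 of 10 members passed by edgeR, 0 by DESeq2 and 0 at an unadjusted p under 0.05, where 0.0187% of 16036 genes passed by edgeR.

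**Figure D4:**
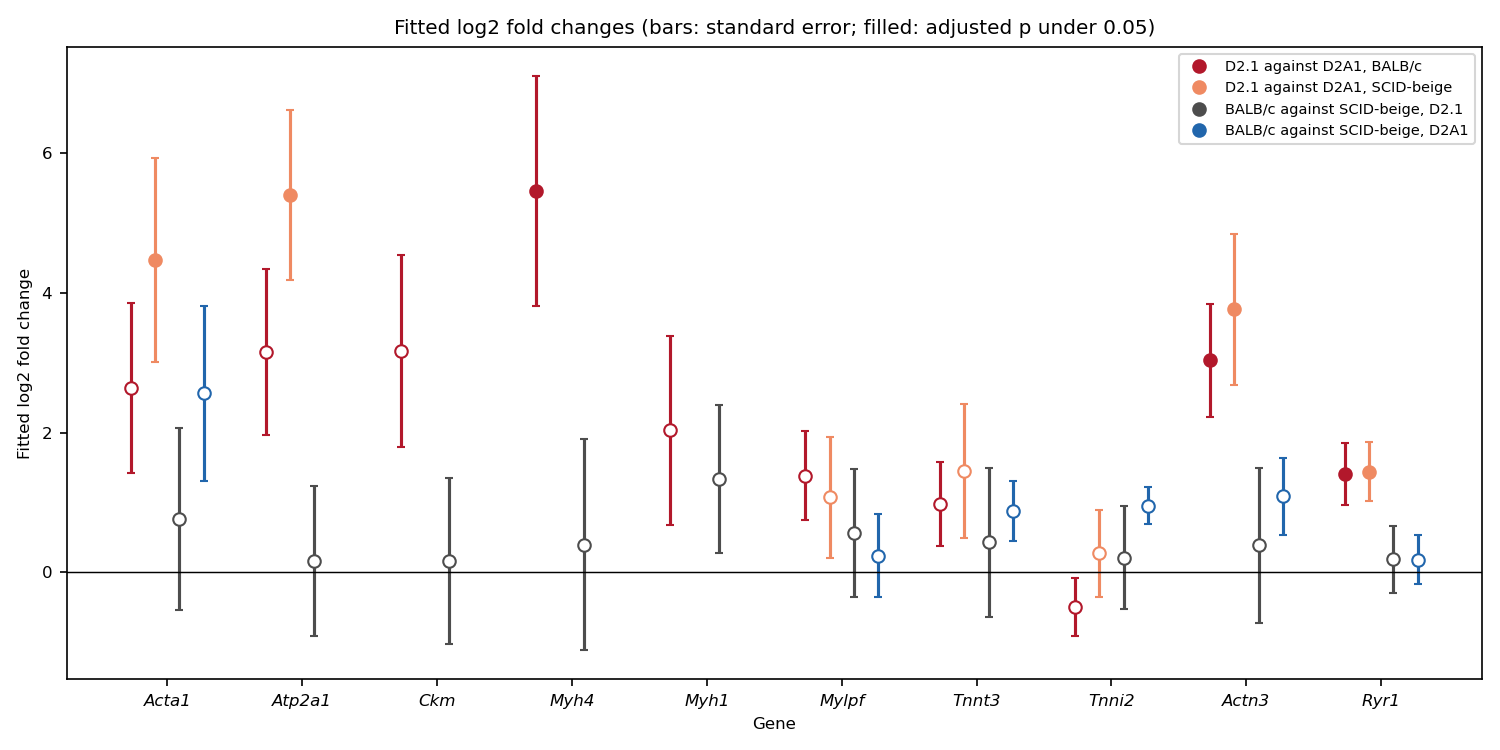
Fitted log2 fold changes of the 10 genes in the 4 comparisons of tumors, with bars of 1 standard error and filled points for an adjusted p under 0.05 (edgeR); genes under the filter on low counts have no point. The fitted log2 fold change of D2.1 over D2A1 is positive for 9 of 10 genes in BALB/c mice, against 48.9% of all genes tested. Of these 10 genes, 3 pass the threshold there, and no host difference passes. Single tumors of the lines in BALB/c mice overlap for every gene but Actn3.

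Between the cultured lines, 6 members passed the filter and 2 the threshold, where 44.9% of 12489 genes passed. Acta1 was higher in D2.1 cells by 3.61 on the log2 scale (SE 0.40, adjusted p = 1.3e-04 by edgeR) and Tnni2 by 3.71 (SE 0.61, adjusted p = 0.00129). Tnni2 stood at 3.27 ± 1.37 CPM (SD, n = 3) in D2.1 and 0.247 ± 0.205 CPM (SD, n = 3) in D2A1 cultures. The means were in the same order in tumors from SCID-beige mice, at 5.70 ± 5.86 CPM (SD, n = 5) in D2.1 and 4.75 ± 1.13 CPM (SD, n = 5) in D2A1. The medians there were in the opposite order, at 2.29 CPM in D2.1 and 4.04 CPM in D2A1. In tumors from BALB/c mice the means were in the opposite order, at 6.48 ± 3.24 CPM (SD, n = 4) and 9.19 ± 2.52 CPM (SD, n = 4). Neither difference between tumors passed.

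Other genes of fast fibers did not all follow the 10. Of a list of 14, 9 passed the filter in BALB/c mice, and 4 were higher in D2.1 tumors, namely Pvalb, the calcium buffer parvalbumin, by 4.62 on the log2 scale, Mybpc2, the fast myosin-binding protein C, by 4.47, Pygm, muscle glycogen phosphorylase, by 2.49, and Pgam2, a muscle phosphoglycerate mutase, by 1.26 (adjusted p of 0.0196 to 0.0423 by edgeR). Among all genes tested in BALB/c mice, 16.8% passed as higher in D2.1 tumors and 32.6% in either direction. Eno3, the muscle enolase, was lower in D2.1 tumors, at -2.87. It had 1962 to 3950 counts in D2A1 tumors, including those with 0 counts of Ckm, and 234 to 928 in D2.1 tumors. In culture, without muscle, the list of 14 summed to 25.1 to 50.8 CPM in D2A1 cells and 15.0 to 41.1 CPM in D2.1 cells. Tnnc2, the calcium-binding troponin C of fast fibers, had at most 1 count in any tumor, also in D2.1 SCID-beige tumor 4 with its 521 counts of Tnnt3.

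Genes of the sarcomere and muscle membrane of all fiber types were tested for 14 of 19 in BALB/c mice. All 14 had a positive log2 fold change, with a median of 1.61, and 4 passed the threshold, Tcap, Cmya5, Stac3 and Cox6a2. Over all genes tested in these mice, 48.9% of the log2 fold changes were positive. A gene near 0 in D2A1 tumors passed the filter only where enough D2.1 tumors were high, which favors positive signs. Of all genes tested there, 16.8% passed as higher and 32.6% in either direction. Ttn, which encodes titin, the spring of the sarcomere, had 287, 77, 65 and 41 counts in D2.1 BALB/c tumors and 13, 28, 45, 248 and 340 in D2.1 SCID-beige tumors, 133, 10, 1 and 1 in D2A1 BALB/c tumors and 11, 15, 7, 22 and 27 in D2A1 SCID-beige tumors. In SCID-beige mice, 5 of the 19 were tested and Ttn passed, higher in D2.1 by 2.95 (adjusted p = 0.0123 by edgeR). The tumors high in Ttn were again D2.1 BALB/c tumor 1, D2.1 SCID-beige tumors 4 and 5 and D2A1 BALB/c tumor 1.

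Slow fiber genes were unequal among themselves. Myh7 had 50 and 19 counts in D2.1 SCID-beige tumors 4 and 5 and at most 4 in any other tumor, and Mb, which encodes myoglobin, had 0 to 49 in D2.1 tumors, 20 in D2A1 BALB/c tumor 1 and at most 1 in the other D2A1 tumors. Tnni1, the slow troponin I, had 23 to 89 counts in D2A1 tumors and 4 to 31 in D2.1 tumors, and Tnnc1, the troponin C of slow and cardiac muscle, 14 to 62 and 8 to 30. Of this list of 10, 3 were tested in BALB/c mice, and Tnni1 was lower in D2.1 tumors at -1.57 (adjusted p = 0.0468 by edgeR). Of 12 myogenic and developing muscle genes, 5 had 3 counts or fewer in every tumor. Myod1 and Myf5, which specify muscle precursors, and Mymk, which fuses them, were at 0 in all 18, and embryonic Myh3 had at most 4 counts. Chrna1 of the same list, a subunit of the acetylcholine receptor of muscle, had 62 counts in D2.1 SCID-beige tumor 1, the tumor lowest in muscle transcripts, 66 in tumor 4 of that group, 35 in D2.1 BALB/c tumor 1 and 30 or fewer in the others. Of 8 cardiac genes, Ryr2 was at 0 in all tumors, while Tnnt2, the cardiac troponin T, had 2232 to 4437 counts in D2A1 tumors and 12 to 58 in D2.1 tumors. In culture, without muscle, the cardiac list summed to 37.3 to 48.9 CPM in D2A1 cells and 13.1 to 13.9 CPM in D2.1 cells.

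The 10 genes outside the members with ranks most like theirs, among 13865 genes ranked over the 18 tumors, included Eef1a2, Mybpc1, Myl1, Xirp2, Mybpc2, Ttn, Pygm, Ndrg2 and Actn2. Their median Spearman's rho with the members ran from 0.82 for Eef1a2, a translation elongation factor of muscle and neurons, to 0.76 for Actn2, an alpha-actinin of the Z-disc, against a median of -0.03 over all genes ranked. Of the 10, 8 were on the lists of fast fiber or sarcomere genes and Eef1a2 and Ndrg2 on no list. Among the 100 most alike stood 6 of 10 ranked fast fiber genes, 9 of 11 ranked sarcomere genes and 1 of 7 ranked smooth muscle and myoepithelial genes, Des, which encodes desmin and is shared by skeletal muscle. None of the 8 ranked adipocyte genes stood there, with the highest rho at 0.37.

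Markers of other tissues in or next to the fat pad followed the order of the muscle transcripts in some groups and not in others. The adipocyte list of 10, led by Car3, Cfd and Fabp4, summed to 1235 CPM in D2.1 BALB/c tumor 1, the tumor highest in muscle transcripts, and to 57.9, 387 and 368 CPM in tumors 2, 3 and 4, the same order as that of the muscle sums. It was at 7.08 to 227 CPM in D2.1 SCID-beige tumors, 118 to 535 CPM in D2A1 BALB/c tumors and 62.6 to 310 CPM in D2A1 SCID-beige tumors, against at most 1.99 CPM in cultured cells. D2.1 SCID-beige tumors 4 and 5, at 227 and 147 CPM, led their group in both lists, while tumor 1, the lowest in muscle transcripts, was at 127 CPM. D2A1 BALB/c tumor 3, at 535 CPM of adipocyte genes, had 0 counts of Ckm, Myh4 and Myh1, while D2A1 BALB/c tumor 1, at 118 CPM, was the lowest of its group in adipocyte genes and the highest in muscle transcripts. The milk protein list of 7 reached 500 CPM in D2.1 BALB/c tumor 1 and 60.3 CPM in tumor 4 and stood at 5.97 CPM or less in all other tumors. In tumor 4, Glycam1 alone was at 59.5 CPM, and the caseins Csn1s1, Csn2 and Csn1s2a were at 0 counts. In tumor 1, these caseins had 2319, 3913 and 1967 counts. Epidermal genes, a list of 10 with keratins of the skin, reached 179 CPM in D2.1 BALB/c tumor 4 and 58.9 CPM in tumor 1 and were at 6.77 CPM or less in all others. The part of these tissues in the levels of the muscle transcripts was not tested.

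**Figure D5:**
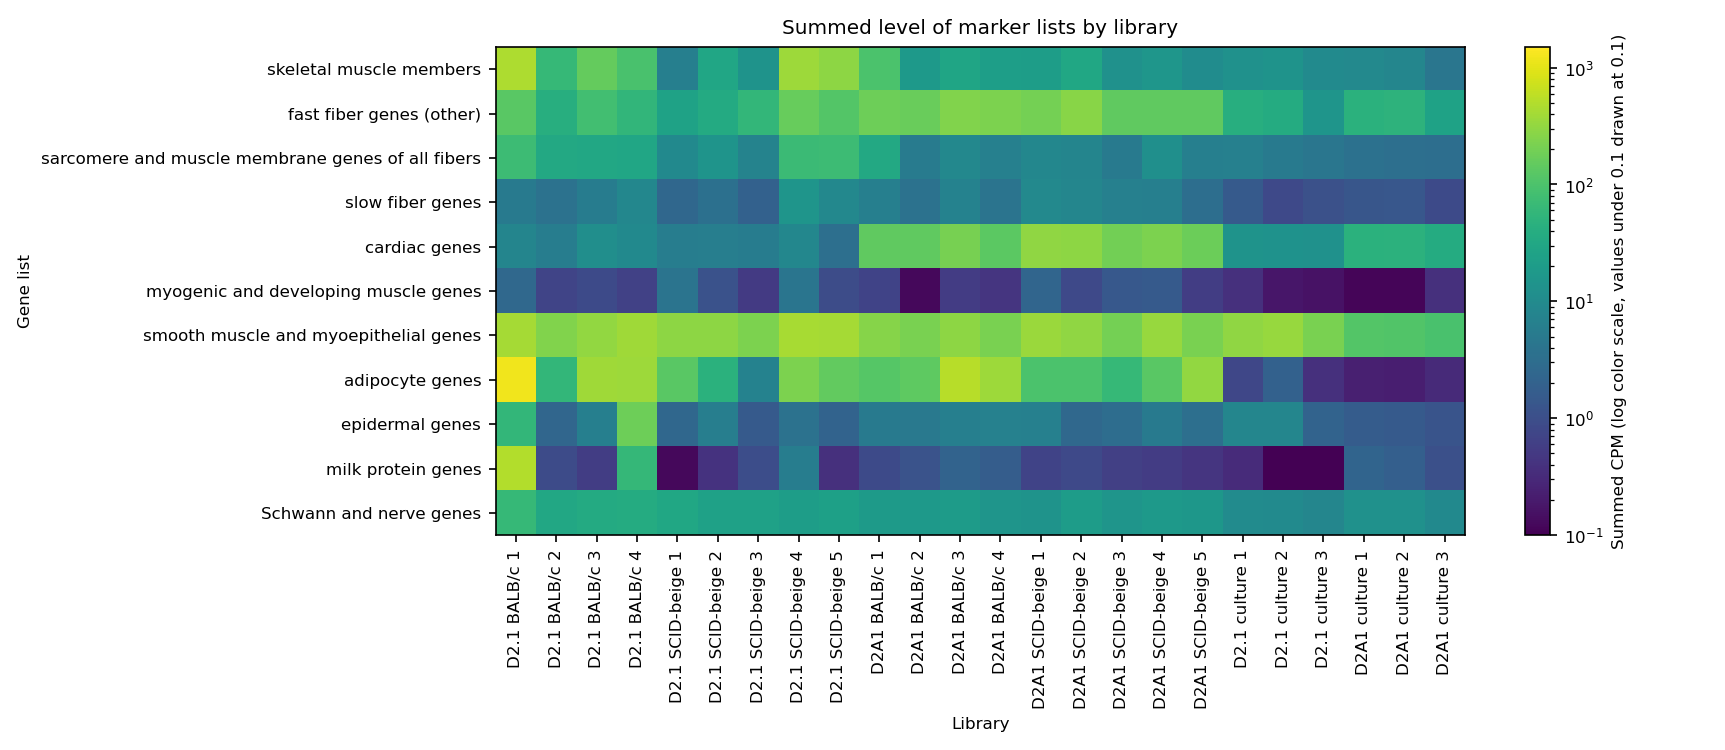
Summed CPM of the 10 muscle transcripts and of 10 marker lists (rows, log color scale) in the 18 tumors and 6 cultures (columns). Adipocyte genes are highest in D2.1 BALB/c tumor 1 (1235 CPM), milk protein genes in the same tumor (500 CPM) and epidermal genes in D2.1 BALB/c tumor 4 (179 CPM).

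Smooth muscle and myoepithelial genes summed to 204 to 429 CPM in tumors and 93.6 to 337 CPM in cultured cells, which overlapped. Smtn and Acta2 led this sum, while Tagln was at 1.39 CPM or less and Lmod1 at 0 to 3.02 CPM in tumors. Schwann and nerve genes summed to 63.7 CPM in D2.1 BALB/c tumor 1 and 14.0 to 37.0 CPM in the other tumors. Of the other lists in BALB/c mice, 0 of 9 tested adipocyte genes passed between the lines by edgeR, 1 of 3 epidermal genes (Krt5, higher in D2.1), 1 of 4 Schwann and nerve genes (Mbp, higher in D2.1), 0 of 1 milk protein genes, 1 of 4 cardiac genes (Tnnt2, lower in D2.1), and of 9 smooth muscle and myoepithelial genes 1 higher (Synpo2) and 1 lower (Actg2). No myogenic gene was tested there. Over all genes tested, 32.6% passed between the lines in BALB/c mice and 32.1% in SCID-beige mice, in either direction. In SCID-beige mice, 2 of 4 tested fast fiber genes were higher in D2.1 tumors (Pygm and Pgam2) and 1 lower (Eno3), 1 of 2 slow fiber genes was lower (Tnni1), 1 of 3 cardiac genes was higher (Tnni3) and 1 lower (Tnnt2), 1 of 8 smooth muscle and myoepithelial genes was higher (Synpo2) and 2 lower (Myh11 and Actg2), 1 of 3 epidermal genes was lower (Krt10), and 0 of 8 adipocyte genes and 0 of 1 myogenic gene passed; the Schwann and nerve list is not reported there. Between hosts, Mbp, a myelin protein, was higher in BALB/c than in SCID-beige hosts of D2.1 tumors by 1.36 on the log2 scale (adjusted p = 0.0233 by edgeR), and no other gene of the 10 lists passed in either line.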

How the data were processed

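RNA-seq libraries of 18 whole tumors and 6 cultures were assigned to groups by their sample labels. Per the study's methods Novogene sequenced them on a NovaSeq and reads went through its standard pipeline or GENAVi, and the submitters' processing notes name STAR and mm10. The counting program, annotation and strand setting are not given in the sources used here. The deposited counts are reads per gene without normalization. The FPKM values the authors deposited equal the counts over a gene length and the library total, as checked on 100% of the values. Reads from the opposite strand cannot be told apart where exons overlap, as Atp2a1 does with Rabep2 over 763 bases, Ckm with A930016O22Rik over 451, Myh1 with Myhas over 515 and Ryr1 with Gm26604 over 864.

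Symbols and coordinates came from GENCODE M21 (GRCm38), and promoters from RefSeq. Tests were run over all genes with edgeR 4.0.16 in R 4.3.3 (TMM, default filter, robust quasi-likelihood fit, Benjamini-Hochberg adjusted p under 0.05), with the 2 groups compared in each fit and all 4 groups for the interaction. Log2 CPM used a prior count of 2. Of 38 pairs of replicates none were copies (chi-square over its degrees of freedom was 4.96 to 117). In data simulated with 200 changed genes (2 on the log2 scale), edgeR recovered 76.5% of 200 in the comparison of lines in BALB/c mice (14953 genes), 86.5% in SCID-beige mice (14355), 79.5% between hosts for D2.1 (14929), 85% for D2A1 (14572), 96% in culture (12489) and 66.5% for the interaction (16036), with at most 6.59% false calls.

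Deviations of same-numbered libraries from their group means had r of 0.100 to 0.491 across genes for the lines in BALB/c mice. In culture r was 0.184 to 0.491, and for the lines in SCID-beige mice -0.16 to 0.344. No reference from differently numbered libraries is given here, and no source says that a number marks a pair. The main fits were unpaired, and the replicate block was an alternative.

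All 10 members are named, with the genes of 10 marker lists given by counts, their 3 most abundant genes or the genes that passed, and the 10 other genes of at least 1 CPM whose ranks were most like the members'. Single list genes beyond that were named after their values were seen. The minimum above cultures at 0 (more than 3 counts) was also set then. The members and lists were chosen with earlier results of these data known. Alternatives were DESeq2 1.42.0, its size factors, other filters, no robust option, the replicate block, 1 fit of all tumors, permutation tests, other sums and each library left out. In the simulated data, 14.3% to 20.1% of the calls of DESeq2 were false. Cell fractions and raw reads were not used here. Results of 2 genes of these lists are not reported here.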

Additional observations from a re-analysis of the deposited data

Results flagged for a closer look

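Within each group of 4 or 5 tumors, 44 sets of values were searched for a tumor set far apart from the others of its group, and 11 were found. A chance rate of about 1 in 20 such sets would hold for normally distributed values only. These CPM values are skewed, and in some sets, such as Myh4 in D2A1 tumors, only 1 tumor of the group had any counts. The chance rate for these values was not tested, so the 11 sets cannot be compared with it. The transcripts of 1 tumor are also not independent of each other.

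In D2.1 tumors from BALB/c mice, tumor 1 stood apart in Acta1, at 145 CPM against 19.9 to 40.2 CPM in the other 3.

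In D2A1 tumors from BALB/c mice, tumor 1 stood apart in 5 transcripts and in their sum. Acta1 was at 36.3 CPM against 0.422 to 1.49 CPM in the other 3 tumors, and Atp2a1 at 9.68 against 0.111 to 0.248 CPM. Ckm was at 5.56, Myh4 at 3.53 and Myh1 at 9.85 CPM, where the other 3 had 0 counts, and the sum of the 10 transcripts was 97.7 against 17.2 to 28.6 CPM. Tumor 2 of this group stood apart at the low end in Tnni2, at 5.45 against 10.2 to 10.9 CPM.

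In D2A1 tumors from SCID-beige mice, tumor 2 stood apart in Ckm at 1.74 CPM against at most 0.0618 CPM in the other 4, in Myh4 at 2.57 CPM against 0, and in Myh1 at 1.39 CPM against at most 0.124 CPM.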

How the results depend on the processing

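Counts of members past the threshold depended on single tumors and on the replicate block. With this block, 7 members passed between lines in BALB/c mice in place of 3, and 1 (Ryr1) between lines in SCID-beige mice in place of 4. In SCID-beige mice the block fit tested 10 members in place of 7, and 5581 of 16146 genes passed. The numbers were not shown to pair the tumors in either host, and the block changed no other count of members. Without a filter on low counts, 2 of 10 passed between lines in SCID-beige mice, where 4600 of 26936 genes did. In 1 fit of all tumors, 6 of 10 passed there, with Ckm and Myh4 added, where 5419 of 16036 genes did. DESeq2 called 1 member, Tnni2, between hosts in D2A1 tumors in place of 0. Leaving out 1 tumor at a time gave 1 to 7 members between lines in BALB/c and 2 to 7 in SCID-beige mice. Between lines in SCID-beige mice, Tnnt3 turned to -0.41 with the replicate block and -0.15 as a difference of log2 CPM, and Tnni2 to -0.47 and -0.46, and without single tumors Tnni2 ran from -0.40 to 0.53. Between hosts in D2.1 tumors, leaving out 1 tumor gave log2 fold changes of -0.16 to 1.73 for Acta1, -0.73 to 0.82 for Atp2a1, -0.74 to 1.0 for Ckm, -1.64 to 1.04 for Myh4, -0.11 to 1.36 for Tnnt3, -0.073 to 0.87 for Tnni2, -1.03 to 1.27 for Actn3 and -0.26 to 0.40 for Ryr1, and in D2A1 tumors -0.91 to 3.43 for Acta1, -0.26 to 0.53 for Mylpf and -0.22 to 0.34 for Ryr1. As a sum of FPKM in place of CPM, D2A1 SCID-beige tumors 1, 2 and 4 held 2.07%, 2.29% and 1.64% of the total over tumors in place of 1.22%, 1.76% and 0.897%. The cause of these changes was not tested. Of the counts and sums, 105 other values kept their size or stayed within 1.5 times under the alternatives that leave out no tumor. Depth limits the transcripts at or near 0 in D2A1 tumors, where 3 counts correspond to up to 0.221 CPM.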

Other observations

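Genes with ranks like those of the muscle transcripts included some that are not specific to contraction. Eef1a2 was at 0 to 8.53 CPM over the 18 tumors (median 0.276) and had at most 2 counts in any cultured library, and Ndrg2, a gene of differentiated tissues, was at 1.18 to 15.3 CPM (median 3.32) with up to 67 counts in cultured cells. Xirp2, an actin-binding protein of the Z-disc region, was at 0 to 5.35 CPM in tumors and at 0 counts in every culture, as were Mybpc1, Myl1 and Actn2.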
